A study of Mus musculus with 16 samples.

Results

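The genes described here are the expressed zinc finger protein genes of mouse KPC1199 cells, those named Zfp followed by digits alone. They were chosen from the deposited count table as protein-coding genes with such a name, Zfp36 left out, and at least 100 counts in each of its 4 matched libraries. Of 364 protein-coding genes with such a name, 164 passed, out of 54532 genes in each table. The groups of the count table were sorted KPC1199 cells with Ly6d overexpression and sorted Ly6d WT KPC1199 cells, with 2 libraries each and read counts per gene. Those of the other table were sorted KPC1199 cells with high Ly6d expression and sorted KPC1199 cells with low Ly6d expression, again 2 libraries each, given as TPM, a level of transcripts scaled to gene length and library total. All 4 groups came from mouse pancreatic cancers grown orthotopically from this line, and the study asked how Ly6d, a small membrane-anchored surface protein, bears on the start and growth of pancreatic cancer. The labels give neither the genotype of the line, nor the construct or clone behind the overexpression, nor the sort gates, nor the age, sex or number of mice. The columns used for the overexpression group carry a library name that the labels give to tumour tissue samples of overexpression, while the sorted overexpression samples are labelled with another name. The columns were taken as sorted cells by inference, since they stand in the table of the sorted WT columns, and whether they hold sorted cells or tissue cannot be told from the names. Every comparison of overexpression with WT below rests on that match. Nothing states that the libraries of a group came from separate animals, so the p-values below measure only the spread between these libraries, which may be technical.

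Zinc finger proteins of this kind fold a short loop around a zinc ion held by a pair of cysteines and a pair of histidines, the C2H2 finger, and most use arrays of such fingers to bind DNA. The largest subgroup carries a Krüppel-associated box (KRAB), a short stretch that recruits the co-repressor Trim28 and through it the histone methyltransferase Setdb1, and many of its members silence retroviruses and other mobile elements. Genes of this subgroup lie in clusters of related copies. Others act outside transcription, on RNA, ribosomes or the mitotic spindle, and a few proteins so named hold a lone or atypical finger.

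Ly6d had 3380 and 3423 CPM, counts scaled to a common library total, in overexpression cells, against 1260 and 1066 CPM in WT cells. In the sorted fractions it had 697 and 504 TPM in Ly6d-high cells, against 1.56 and 0.352 TPM in Ly6d-low cells. The 8 epithelial markers summed to 12745 and 13430 CPM in overexpression cells, against 12444 and 12056 CPM in WT cells, and to 40038 and 39162 TPM in Ly6d-high cells, against 55738 and 56867 TPM in Ly6d-low cells. Single epithelial markers did not all follow these sums. At an adjusted p under 0.05, 0 were higher and 1 lower in overexpression cells, and 2 were higher and 4 lower in Ly6d-high cells. Markers of other cell types moved with the groups. The 10 acinar markers summed to 1381 and 1505 CPM in overexpression cells, against 18564 and 18968 CPM in WT cells, and to 12642 and 11170 TPM in Ly6d-high cells, against 5052 and 5051 TPM in Ly6d-low cells. The 8 macrophage markers summed to 227 and 235 CPM in overexpression cells, against 79.9 and 81.9 CPM in WT cells, and to 206 and 196 TPM in Ly6d-high cells, against 70.1 and 66.3 TPM in Ly6d-low cells, with Adgre1 at 0 in a TPM library. The 7 neutrophil markers summed to 168 and 182 CPM in overexpression cells, against 54.9 and 53.6 CPM in WT cells, and to 161 and 196 TPM in Ly6d-high cells, against 61.2 and 63.4 TPM in Ly6d-low cells. Of these, S100a8, Ngp, Retnlg, Camp and Csf3r were at 0 in a TPM library and Camp in a count library. Only 2 of the 7 were high enough to be tested between the sorted fractions. The 5 B and plasma cell markers summed to 82.9 and 82.4 CPM in overexpression cells, against 7.62 and 6.08 CPM in WT cells, and to 89.1 and 76.0 TPM in Ly6d-high cells, against 2.84 and 1.20 TPM in Ly6d-low cells, with Ms4a1 at 0 in libraries of both tables and Mzb1 in a TPM library. Of the endothelial, islet and fibroblast markers, 6 genes each, 5, 6 and 0 were lower and 0, 0 and 2 higher in overexpression cells, and 0, 4 and 0 were lower in Ly6d-high cells. For scale, 2.32% of all genes tested were higher and 1.84% lower in overexpression cells, and 8.64% and 1.17% in Ly6d-high cells. The 6 fibroblast markers summed to 6203 and 6182 CPM in overexpression cells, against 5214 and 5793 CPM in WT cells. In Ly6d-high cells they summed to 393 and 468 TPM, against 377 and 386 TPM in Ly6d-low cells. T cell markers were too low to be tested. Mitochondrially encoded genes took 2.17% and 2.36% of counts in overexpression cells, against 2.003% and 2.224% in WT cells, and 2.02% and 1.87% of TPM in Ly6d-high cells, against 3.30% and 3.38% in Ly6d-low cells. The 50 highest genes of a library took 13.6% and 13.8% in overexpression cells, against 13.5% and 14.97% in WT cells, and 28.5% and 25.8% in Ly6d-high cells, against 33.4% and 32.8% in Ly6d-low cells. The part of these markers and shares in the results below was not tested. In bulk libraries such as these, fewer cells of a type and less RNA per cell cannot be told apart.

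Most of the 164 genes were present at low to moderate levels. The mean level over the Ly6d-high and Ly6d-low libraries had a median of 6.35 TPM and quartiles of 2.91 and 12.6 TPM, and ran from 0.176 TPM for Zfp526 to 265 TPM for Zfp706. Averages were under 2 TPM for 24 genes and above 20 TPM for 16. The 8 genes with the highest level were Zfp706, Zfp830, Zfp637, Zfp207, Zfp358, Zfp511, Zfp428 and Zfp771, with mean levels of 265, 73.1, 62.1, 51.5, 46.0, 44.4, 37.4 and 36.1 TPM. Zfp706 stood alone at the top: it had 253 and 271 TPM in Ly6d-high cells, against 266 and 270 TPM in Ly6d-low cells, and its groups overlapped. Zfp830, whose protein is a nuclear factor of pre-mRNA splicing and genome stability, had 74.5 and 68.0 TPM in Ly6d-high cells, against 72.2 and 77.9 TPM in Ly6d-low cells. Zfp207, whose protein binds microtubules and takes part in spindle assembly, had 48.0 and 61.3 TPM in Ly6d-high cells, against 47.6 and 49.0 TPM in Ly6d-low cells. In both of these genes the groups overlapped as well. From Zfp830 to Zfp771 the range of each gene over the 4 libraries overlapped that of the next in order.

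The 2 tables did not rank the genes alike. Counts divided by gene length and scaled to the total of the TPM table gave levels whose Spearman rank correlation with the TPM table was 0.62 over the 164 genes, against 0.80 over 13230 genes at 1 TPM or more in both. The points share gene length, and these values describe the tables rather than a comparison of conditions. Zfp598, an E3 ubiquitin ligase that marks collided ribosomes, ranked 3rd of 164 from counts and 74th in the TPM table. Zfp865 ranked 80th from counts and 163rd in the TPM table, and Zfp526 ranked 113th and 164th, the last place. These 3 genes were chosen after their values were seen. The ratio of the TPM level to the level from counts fell with the GC content of the coding sequence (Spearman rho = -0.40 over 164 genes) and with the length of the gene model (-0.32). The tables were normalized separately, so levels are compared below only within a table.

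**Figure D1:**
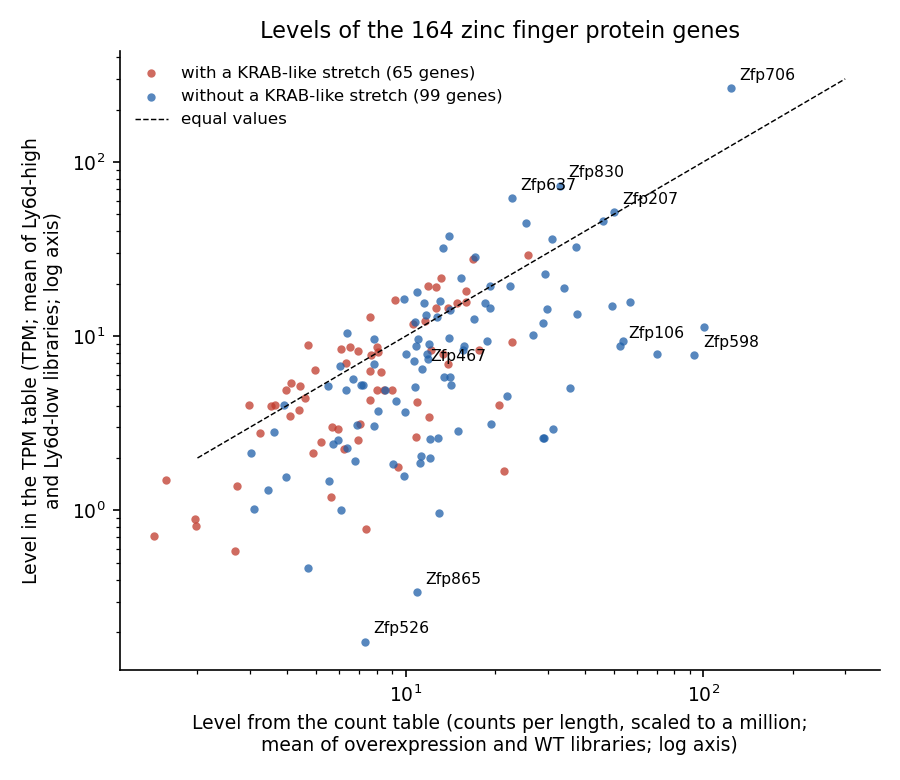
Level of each of the 164 zinc finger protein genes from the count table (horizontal axis, counts per length scaled to the same total, mean of the overexpression and WT libraries) and in the TPM table (vertical axis, mean of the Ly6d-high and Ly6d-low libraries), both on log axes. Points are genes, coloured by whether the protein holds a KRAB-like stretch, and the dashed line marks equal values; Zfp706 lies at the top of both axes, while Zfp598, Zfp865 and Zfp526 lie far below the line.

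Overexpression and WT cells were compared in the same libraries that set the count minimum of the zinc finger genes. Of the 164 genes, 1 was past an adjusted p of 0.05 in edgeR's quasi-likelihood test, Zfp395, which was higher in overexpression cells (0.61% of the genes), and 0 were lower. In the same fit 4.16% of all 15771 genes tested were called, 2.32% higher and 1.84% lower, and 3.49% of the 10133 protein-coding genes with at least 100 counts in each library. At an unadjusted p under 0.05 there were 17 of the 164 genes. The same held for 2727 of all 15771 genes tested and for 1794 of the 10133 protein-coding genes. The minimum of 100 counts was taken over these same libraries and removes genes that were low in either group, so these counts describe the set and nothing is read from them. The log2 fold changes ran from -0.63 to 0.59 with a median of 0.03, against a median of -0.00 over all genes tested. The fold change was above 0 in 94 genes and below 0 in 70. Summed over the 164 genes, the level was 5193 and 5054 CPM in overexpression cells, against 4969 and 4829 CPM in WT cells. The 95% interval of the fold change lay within 2-fold in either direction for 161 of 164 genes and within 1.5-fold for 102. The 3 genes with wider intervals were Zfp809, Zfp866 and Zfp933, the last of which lay just inside the count minimum.

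Zfp395 encodes a protein with a single finger whose human counterpart is induced by hypoxia. It lies at chr14:65358389-65398930 (GRCm38, ENSMUSG00000034522). It had 1883 and 1887 counts in overexpression cells, against 1446 and 1266 counts in WT cells, or 103 and 105 CPM against 79.9 and 81.9 CPM. Both overexpression libraries lay above both WT libraries. The log2 fold change was 0.34 ± 0.08 (SE), with an adjusted p of 0.0348 in edgeR's quasi-likelihood test. That call was lost when either WT library or the second overexpression library was left out, with adjusted p-values of 0.0574 to 0.203, while the fold change stayed between 0.31 and 0.37, and it was lost with the column number as a block (adjusted p = 0.0617). In the sorted fractions the sign was the other way and the groups overlapped: Zfp395 had 7.61 and 9.09 TPM in Ly6d-high cells, against 8.81 and 11.9 TPM in Ly6d-low cells (limma difference of -0.27 on the log2(TPM + 1) scale, adjusted p = 0.383).

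A few further genes were chosen after their values were seen, as those nearest the threshold or at the ends of the range. Zfp652, whose human counterpart is a partner of the transcriptional co-repressor CBFA2T3, had 72.4 and 79.5 CPM in overexpression cells, against 60.8 and 56.6 CPM in WT cells, with a log2 fold change of 0.35 ± 0.10 and an adjusted p of 0.0684 in edgeR's test. The groups did not overlap. Zfp809, a KRAB protein that recognises the primer binding site of murine retroviruses and silences their DNA with Trim28, had the lowest fold change of the set. It had 8.91 and 11.7 CPM in overexpression cells, against 17.3 and 14.2 CPM in WT cells, with a log2 fold change of -0.63 ± 0.21 and an adjusted p of 0.133 in edgeR's test. Zfp933 had the highest fold change, 0.59 ± 0.26, on 205 and 146 counts in overexpression cells, against 102 and 109 counts in WT cells, and its adjusted p was 0.279. The groups of these genes did not overlap, a pattern met in 47 genes with overexpression higher (28.7%) and in 22 with overexpression lower (13.4%), against 26.3% and 21.7% of all genes tested.

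Around the minimum of 100 counts, the genes just inside were Zfp933 and Zfp951, with 102 counts in their lowest library, and Zfp747, with 103. Just outside were Zfp954 and Zfp606, with 99 counts, and Zfp688, Zfp65 and Zfp995, with 98. A minimum of 50 counts would have kept 218 genes and a minimum of 200 counts 113.

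**Figure D2:**
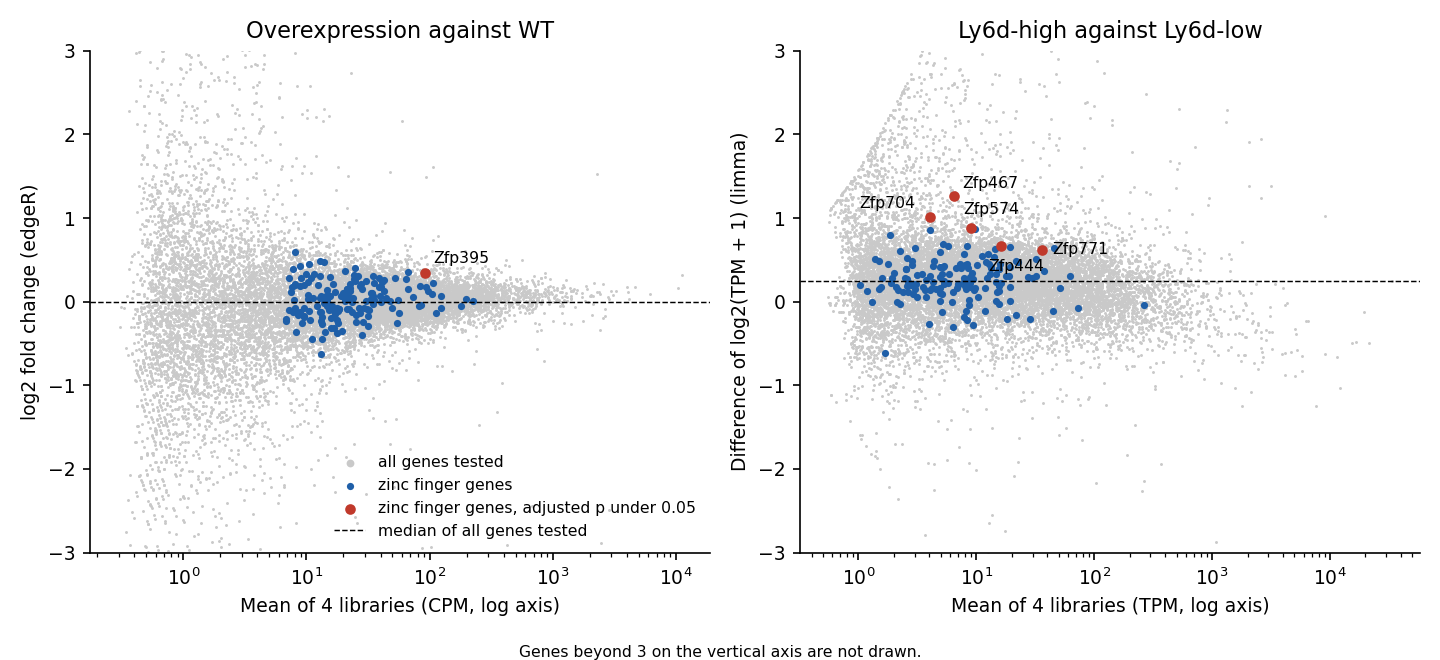
Change against mean level for all genes tested (grey) and for the zinc finger genes (blue, or red where the adjusted p is under 0.05). The left panel gives the log2 fold change of overexpression against WT cells over mean CPM and the right panel the difference of log2(TPM + 1) between Ly6d-high and Ly6d-low cells over mean TPM; the dashed line is the median of all genes tested, at -0.00 on the left and 0.25 on the right. Zfp395 stands alone on the left and 5 genes are marked on the right.

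The count minimum that picked the genes used no Ly6d-high or Ly6d-low library. Earlier results of these data were known when the set was chosen, however. Of the 164, 154 reached 1 TPM in at least 2 of the 4 libraries and were tested with limma on log2(TPM + 1). The other 10 were too low. Only 1 of those tested, Zfp398, passed that minimum through both Ly6d-high libraries and no Ly6d-low library. In Ly6d-high cells 5 zinc finger genes were higher than in Ly6d-low cells (3.25% of those tested) and 0 were lower. Of all 14625 genes tested, 9.81% were called, 8.64% higher and 1.17% lower, and of the 9901 protein-coding genes with at least 100 counts in each count library 6.33% were called. At an unadjusted p under 0.05 there were 32 of the 154 zinc finger genes. The same held for 4499 of all 14625 genes tested and for 2803 of the 9901 protein-coding genes. The 5 genes were Zfp467, Zfp704, Zfp574, Zfp771 and Zfp444.

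The 5 proteins, and that of Zfp395, differ in how their fingers are built, and the finger-coding stretches below show it. For Zfp467, Zfp574 and Zfp771, which have 12, 18 and 8 fingers, a finger followed by the linker typical of DNA-binding arrays is given. For Zfp444, with 4 fingers and no such linker, and for Zfp704 and Zfp395, with 1 finger each, the first finger alone is given. Bases are from the longest coding GENCODE M21 transcript, 5′ to 3′ on the coding strand, and capitals mark the codons of the 2 cysteines and 2 histidines that hold the zinc.
Zfp467, finger 3: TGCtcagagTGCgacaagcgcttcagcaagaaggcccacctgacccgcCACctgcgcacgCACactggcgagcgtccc
Zfp574, finger 9: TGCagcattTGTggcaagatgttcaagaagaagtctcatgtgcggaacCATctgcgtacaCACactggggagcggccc
Zfp771, finger 1: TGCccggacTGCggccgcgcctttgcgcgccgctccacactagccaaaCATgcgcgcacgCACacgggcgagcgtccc
Zfp444, finger 1: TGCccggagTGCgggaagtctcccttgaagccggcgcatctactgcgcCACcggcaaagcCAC
Zfp704, finger 1: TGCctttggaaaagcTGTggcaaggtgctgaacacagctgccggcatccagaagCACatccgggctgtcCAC
Zfp395, finger 1: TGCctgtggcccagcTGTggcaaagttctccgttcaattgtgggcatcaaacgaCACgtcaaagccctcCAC
Zfp704 and Zfp395 share the longer loops of 72 bases and 46 identical bases, and they are paralogs. Zfp467 and Zfp574 share 51 of 78 bases, Zfp467 and Zfp771 share 46, and Zfp574 and Zfp771 share 39.

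Zfp467 had the largest difference of the set. Its protein is known in mouse for promoting adipocyte over osteoblast formation from marrow stromal cells. The gene lies at chr6:48427697-48445825 (GRCm38, ENSMUSG00000068551). It had 8.32 and 10.8 TPM in Ly6d-high cells, against 3.66 and 3.11 TPM in Ly6d-low cells, resting on 284 and 306 reads against 94 and 101 reads. The groups did not overlap and the ratio of means was 2.83. The difference was 1.26 ± 0.20 (SE) on the log2(TPM + 1) scale, with an adjusted p of 0.0100 in limma's test. It lost the call without the second Ly6d-high library (adjusted p = 0.0853, difference 1.09).

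Zfp704 had 4.67 and 6.82 TPM in Ly6d-high cells, against 2.07 and 2.53 TPM in Ly6d-low cells, a difference of 1.02 ± 0.23 with an adjusted p of 0.0377 in limma's test. The gene lies at chr3:9427020-9610085 (GRCm38, ENSMUSG00000040209). Zfp574, at chr7:25072567-25083492 (ENSMUSG00000045252), had 10.01 and 14.1 TPM in Ly6d-high cells, against 5.78 and 6.29 TPM in Ly6d-low cells, a difference of 0.88 ± 0.21 with an adjusted p of 0.0427 in limma's test. In both genes the second Ly6d-high library was the highest of the 4, and the Ly6d-low libraries lay close together.

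Zfp771 was the highest of the 5 in level. It lies at chr7:127244274-127254803 (GRCm38, ENSMUSG00000054716) and had 42.7 and 45.1 TPM in Ly6d-high cells, against 30.0 and 26.4 TPM in Ly6d-low cells, a difference of 0.62 ± 0.15 with an adjusted p of 0.0434 in limma's test. Zfp444, at chr7:6172226-6193811 (ENSMUSG00000044876), encodes a protein whose human counterpart activates the promoter of an endothelial scavenger receptor. It had 19.1 and 21.2 TPM in Ly6d-high cells, against 12.7 and 12.03 TPM in Ly6d-low cells, a difference of 0.66 ± 0.16 with an adjusted p of 0.0445 in limma's test. The libraries of a group lay closer together here than in Zfp704 or Zfp574. Adjusted p-values of the 4 genes other than Zfp467 lay close to the threshold, and each lost its call when the second Ly6d-high library or either Ly6d-low library was left out, with adjusted p-values of 0.0573 to 0.485.

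**Figure D3:**
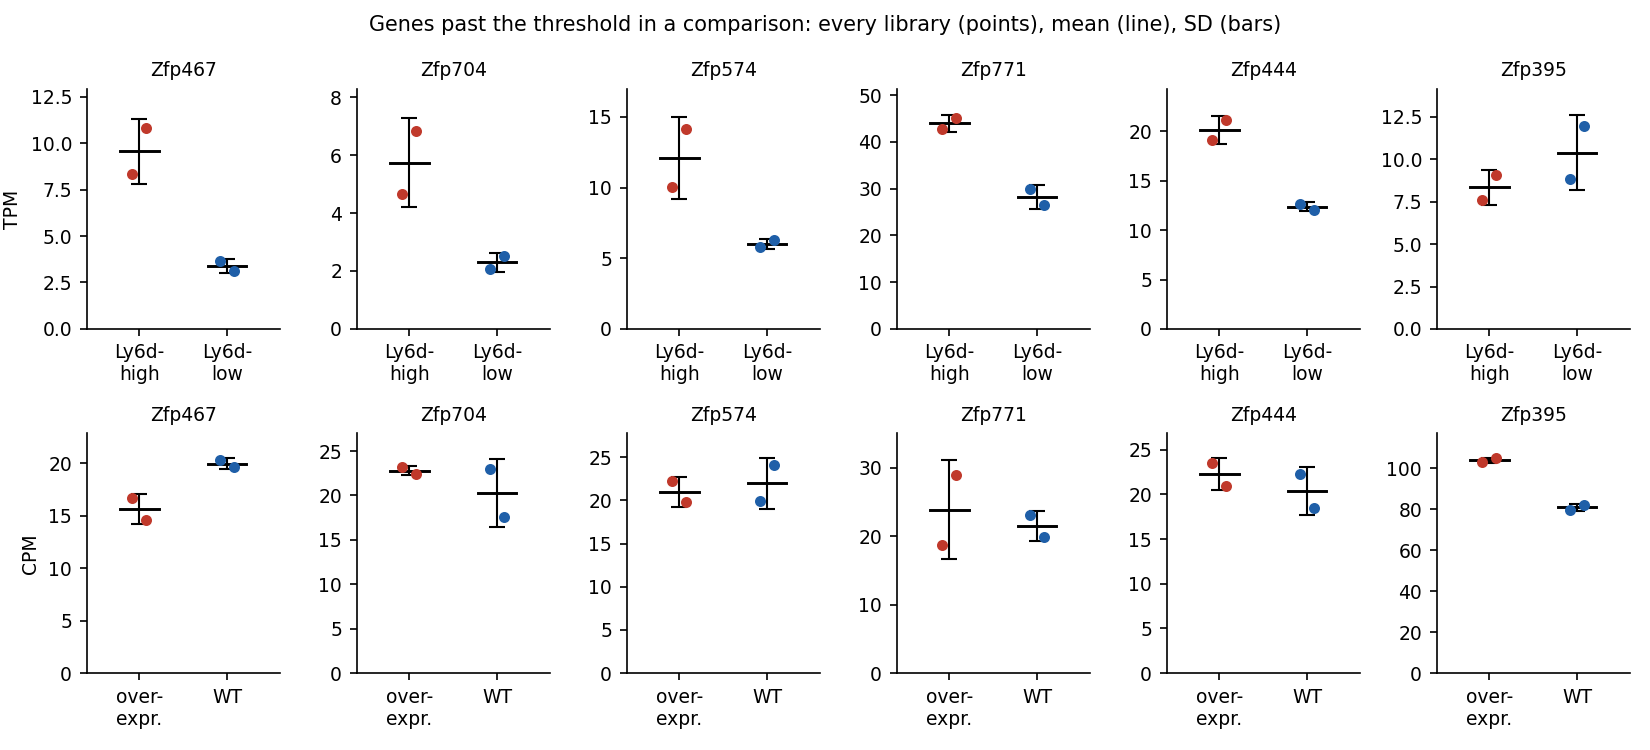
The 6 genes past the threshold in a comparison, with each library as a point, the mean as a line and the SD as bars. The upper row gives TPM in Ly6d-high (red) and Ly6d-low (blue) cells and the lower row CPM in overexpression (red) and WT (blue) cells, all axes starting at 0; Zfp467 is higher in both Ly6d-high libraries (8.32 and 10.8 TPM) but lower in both overexpression libraries (16.7 and 14.6 CPM against 20.3 and 19.6 CPM in WT).

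Most zinc finger genes had positive differences between Ly6d-high and Ly6d-low cells, and so did genes at large. The difference was above 0 in 134 of 154 genes and below 0 in 20, with a median of 0.26 and a range from -0.61 to 1.26 on the log2(TPM + 1) scale. Over all genes tested the median was 0.25. Groups did not overlap in 95 genes with Ly6d-high higher (61.7%) and in 4 with Ly6d-high lower (2.6%), against 54.4% and 10.4% of all genes tested. Summed over the 164 genes, the level was 1840 and 2179 TPM in Ly6d-high cells, against 1676 and 1693 TPM in Ly6d-low cells. The second Ly6d-high library stood apart: 139 of the 164 genes were higher in it than in the first, by a median of 0.25 on the log2 scale, against 0.19 over all genes tested.

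Scaling the libraries by trimmed mean of M-values (TMM) factors on the TPM removed most of that common shift. The factors were 1.02 and 1.18 for the Ly6d-high libraries and 0.892 and 0.925 for the Ly6d-low libraries. With them the median of all genes tested was 0.01 and that of the zinc finger genes 0.03, and 86 of 154 were above 0. Zfp467 alone stayed past the threshold (0.649%, against 6.48% of all genes tested, 4.8% higher and 1.68% lower), with a difference of 1.03 and an adjusted p of 0.0276 in limma's test. Zfp704, Zfp574, Zfp444 and Zfp771 had differences of 0.80, 0.63, 0.40 and 0.35 and adjusted p-values of 0.0636, 0.0683, 0.0934 and 0.153. The order and the sign of these 5 were the same with and without the factors, while the call of 4 of them was not.

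**Figure D4:**
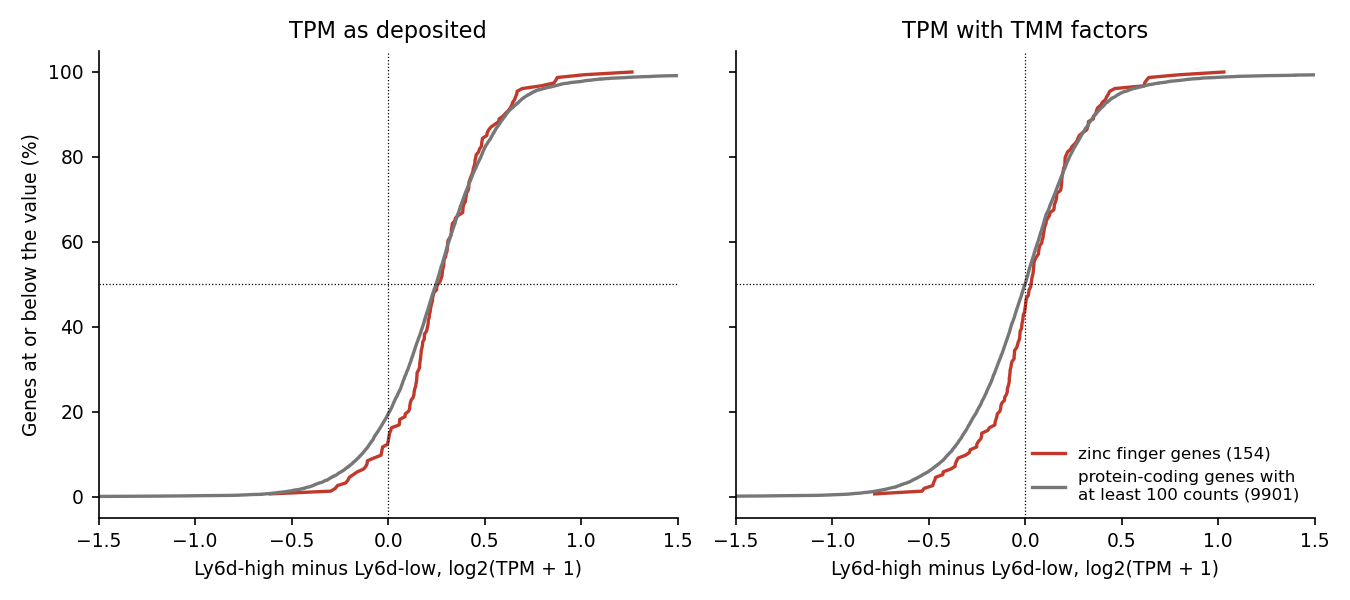
Cumulative share of genes (vertical axis, percent) at or below a given difference between Ly6d-high and Ly6d-low cells (horizontal axis, log2(TPM + 1)), for the 154 zinc finger genes tested (red) and the 9901 protein-coding genes with at least 100 counts in each count library (grey). On TPM as deposited (left) the zinc finger median is 0.26, and with TMM factors (right) it is 0.03; the red line lies under the grey one on the lower side, where fewer zinc finger genes had negative differences.

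The reads behind the TPM could be recovered as whole numbers, which allowed a count test. On these reads edgeR's quasi-likelihood test called 6 of 163 zinc finger genes (3.68%, against 11.9% of all 15275 genes tested). Zfp704, Zfp574, Zfp467 and Zfp810 were higher in Ly6d-high cells (2.45%, against 8.01% of all genes) and Zfp57 and Zfp53 were lower (1.23%, against 3.87%). Zfp57, a KRAB protein that binds methylated DNA and maintains genomic imprints, had 32 and 30 reads in Ly6d-high cells, against 46 and 72 reads in Ly6d-low cells, or 1.05 and 1.19 TPM against 2.01 and 2.49 TPM. The groups did not overlap. In the limma test it had the lowest difference of the set, -0.61 ± 0.22, with an adjusted p of 0.119. Zfp810, a KRAB gene next to Zfp809 on chromosome 9, had 4.39 and 6.67 TPM in Ly6d-high cells, against 2.24 and 2.88 TPM in Ly6d-low cells, a difference of 0.86 ± 0.24 with an adjusted p of 0.0673 in limma's test. Zfp53 had 18.3 and 22.4 TPM in Ly6d-high cells, against 22.8 and 22.7 TPM in Ly6d-low cells, with an adjusted p of 0.524 in limma's test.

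No gene was past the threshold in both comparisons, which share no library. The fold changes of the 154 genes in them had the same sign in 87, with a Pearson r of -0.07 and a Spearman rho of -0.03 across genes, given as a description since genes are not replicates. Groups did not overlap in both comparisons for 26 genes that were higher in overexpression and in Ly6d-high cells, 15 that were lower in overexpression and higher in Ly6d-high cells, 1 that was lower in both (Zfp930) and 0 that were higher in overexpression and lower in Ly6d-high cells. These are 16.9%, 9.74%, 0.649% and 0% of the 154 genes, against 15.2%, 13.0%, 1.94% and 2.61% of the 13241 genes tested in both. Zfp467 was among the 15: it had 305 and 263 counts in overexpression cells, against 368 and 303 counts in WT cells, a log2 fold change of -0.37 ± 0.16 with an adjusted p of 0.274 in edgeR's test. Zfp809 was another, at 20.9 and 27.2 TPM in Ly6d-high cells, against 14.1 and 15.5 TPM in Ly6d-low cells (difference 0.66 ± 0.18, adjusted p = 0.0663 in limma's test). The other 4 genes called in the sorted fractions had log2 fold changes of -0.08 to 0.15 under overexpression, with adjusted p-values of 0.716 to 0.853 in edgeR's test and overlapping groups. Whether a gene's change differed between the comparisons was not tested, since the tables hold different units.

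**Figure D5:**
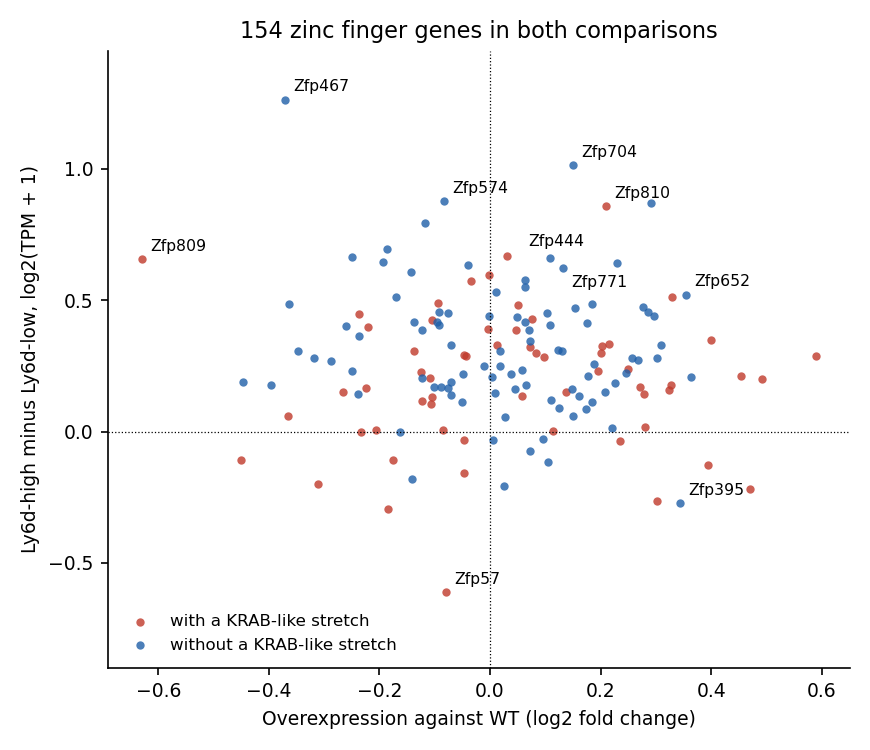
The 154 zinc finger genes tested in both comparisons, by log2 fold change of overexpression against WT cells (horizontal axis) and difference between Ly6d-high and Ly6d-low cells (vertical axis, log2(TPM + 1)); colours mark genes with (red) and without (blue) a KRAB-like stretch. The cloud lies mostly above 0 on the vertical axis (134 of 154) and on both sides of 0 on the horizontal axis; Zfp467 and Zfp809 lie at the upper left and Zfp395 at the lower right.

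By architecture, 65 of the 164 proteins held a KRAB-like stretch, at least 6 of 9 core positions of the KRAB A box, against 216 of 362 for zinc finger genes of any level with a coding sequence. The other 99 had none. KRAB-like proteins held a median of 12 fingers and 7 linkers, against 7 fingers and 1 linker in the others. The largest array was that of Zfp142, with 36 fingers, and 4 proteins, those of Zfp330, Zfp703, Zfp503 and Zfp839, held no finger of the pattern searched. The median level was 4.92 TPM for KRAB-like genes and 7.43 TPM for the others. Under overexpression, 0 of 65 KRAB-like genes were called, with a median log2 fold change of 0.03, and 1 of 99 others, with a median of 0.05. Between Ly6d-high and Ly6d-low cells, 0 of 60 KRAB-like genes were called, with a median difference of 0.21, and 5 of 94 others, with a median of 0.28. With TMM factors on the TPM those medians were -0.01 and 0.04. For scale, 4.16% of all genes tested were called under overexpression and 9.81% between the sorted fractions. Of protein-coding genes with at least 100 counts in each count library the shares were 3.49% and 6.33%. Nothing is read from the calls by architecture, and the difference between the architectures was not tested.

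The difference between the sorted fractions was larger in genes rich in GC. Across 154 genes it increased with the GC content of the coding sequence, which ran from 35.2% to 69.5% (Spearman rho = 0.39). For the overexpression fold change the same rho was 0.09, and for the ratio of the second to the first Ly6d-high library 0.10. These are correlations across genes that share libraries and are given as description. The part of base composition in the 5 calls was not tested.

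Zinc finger genes were spread over 19 chromosomes, with 32 on chromosome 7, 20 on chromosome 17 and 14 on chromosome 8, where clusters of related copies lie. KRAB-like genes made up 10, 15 and 7 of these. Chromosome 7 held 3 of the 5 genes called in the sorted fractions, Zfp574, Zfp771 and Zfp444, which lie far apart on it. The median difference between Ly6d-high and Ly6d-low cells was 0.38 for chromosome 7, 0.08 for chromosome 17 and 0.31 for chromosome 8, and with TMM factors 0.12, -0.16 and 0.05. Under overexpression the medians were 0.11, 0.03 and -0.02. No source read for this work states how the counting shared reads between near-identical copies or whether strand was used, so values of clustered genes and of genes with an antisense partner are uncertain.

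By function, none of the genes listed for chromatin and transcription was past the threshold in either comparison. Of all genes tested, 4.16% were called under overexpression and 9.81% between the sorted fractions, so nothing is read from the lack of calls here. This list held 26 measured genes, with medians of 0.02 under overexpression and 0.28 between the sorted fractions, or 0.07 with TMM factors. At an unadjusted p under 0.05 there were 6 of 26 and 7 of 25 tested, against 2727 of 15771 and 4499 of 14625 genes at large. Zfp217, whose human counterpart is a breast cancer oncogene, had 73.6 and 67.7 CPM in overexpression cells, against 62.0 and 53.9 CPM in WT cells (log2 fold change 0.27 ± 0.10, adjusted p = 0.192 in edgeR's test). Zfp281, a regulator of pluripotency and of epithelial to mesenchymal transition, had 60.8 and 55.1 CPM in overexpression cells, against 47.4 and 47.1 CPM in WT cells (0.28 ± 0.10, adjusted p = 0.176 in edgeR's test). It had 20.97 and 32.6 TPM in Ly6d-high cells, against 19.1 and 18.1 TPM in Ly6d-low cells (0.47 ± 0.22, adjusted p = 0.194 in limma's test). Zfp703, whose human counterpart is amplified in luminal breast cancers, had 12.2 and 14.9 TPM in Ly6d-high cells, against 8.54 and 9.30 TPM in Ly6d-low cells (0.55 ± 0.18, adjusted p = 0.0949 in limma's test). Groups did not overlap in these 3 genes, which were chosen after their values were seen.

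Of the 9 genes listed for RNA, ribosome or spindle functions, 0 were called in either comparison, and 0 had an unadjusted p under 0.05. Their medians were 0.00 under overexpression and 0.16 between the sorted fractions, the last turning to -0.11 with TMM factors. For scale, 4.16% and 9.81% of all genes tested were called, and 2727 of 15771 and 4499 of 14625 had an unadjusted p under 0.05. Nothing is read from a lack of calls in these 9 genes or in the 3 that follow. Of the 3 ubiquitin or SUMO ligase genes, Zfp91, Zfp451 and Zfp598, 0 were called, and all had fold changes below 0 under overexpression, from -0.25 to -0.05. Zfp598 had 105 and 111 CPM in overexpression cells, against 121 and 114 CPM in WT cells (-0.14 ± 0.08, adjusted p = 0.383 in edgeR's test), and 6.34 and 8.19 TPM in Ly6d-high cells, against 8.06 and 8.56 TPM in Ly6d-low cells.

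The machinery that KRAB proteins recruit was followed in 20 listed co-repressor genes. Of these, 0 of 20 were called under overexpression (median log2 fold change -0.02) and 0 of 19 between the sorted fractions (median 0.19, or -0.08 with TMM factors). Of all genes tested, 4.16% and 9.81% were called, so nothing is read from the lack of calls in so small a list. Of the co-repressor genes, 1 and 3 had an unadjusted p under 0.05, against 2727 of 15771 and 4499 of 14625 genes at large. Trim28 had 230 and 247 CPM in overexpression cells, against 240 and 269 CPM in WT cells. Its log2 fold change was -0.11, with a 95% interval from -0.28 to 0.06 derived from edgeR's test. It had 37.1 and 54.0 TPM in Ly6d-high cells, against 31.8 and 32.6 TPM in Ly6d-low cells, where the second Ly6d-high library was far above the first (difference 0.46 ± 0.20, adjusted p = 0.164 in limma's test). That p came under the threshold in limma's fit with a replicate block (0.0259) and without the first Ly6d-high library (0.0332), and the difference was 0.20 to 0.73 with a library left out and 0.19 with TMM factors. Setdb1 had 64.4 and 61.7 CPM in overexpression cells, against 64.2 and 61.8 CPM in WT cells, and 5.79 and 6.41 TPM in Ly6d-high cells, against 6.18 and 6.07 TPM in Ly6d-low cells. The groups overlapped in both tables.

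Some genes of other C2H2 families were past the threshold. For scale, 2.32% of all genes tested were higher and 1.84% lower in overexpression cells. In Ly6d-high cells the shares were 8.64% higher and 1.17% lower. Nothing is read from the counts of these small lists. Among Krüppel-like factors, Klf5 and Klf13 were higher and Klf15 lower in overexpression cells (of 13 tested), and Klf13 and Klf15 were higher in Ly6d-high cells (of 13). Klf15, a regulator of metabolism, had 0.929 CPM or less in either library of overexpression cells, against 3.59 and 3.95 CPM in WT cells (log2 fold change -2.40, adjusted p = 0.0325 in edgeR's test). It had 3.26 and 4.31 TPM in Ly6d-high cells, against 0.237 and 0.375 TPM in Ly6d-low cells (difference 1.87, adjusted p = 0.00333 in limma's test). Klf15 reached the TPM minimum through the Ly6d-high libraries alone, so it could enter that test only by being higher there, and its level was low in both tables.

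Among the Zbtb genes, which join fingers to a BTB dimerisation domain, 0 of 39 were called under overexpression and 2 of 28 were higher in Ly6d-high cells, Zbtb20 (difference 1.48, adjusted p = 0.00540 in limma's test) and Zbtb7c (1.49, adjusted p = 0.0111). Zbtb7c had 2.77 and 3.85 TPM in Ly6d-high cells, against 0.385 and 0.664 TPM in Ly6d-low cells, and passed the TPM minimum through Ly6d-high libraries alone. Of 7 genes named Sp and digits, 0 were called under overexpression and Sp5 and Sp100 were higher in Ly6d-high cells, although Sp100 is a nuclear body protein and no Sp factor. Sp5 too passed the minimum through Ly6d-high libraries alone, at 1.54 and 2.08 TPM against 0.0788 and 0.0623 TPM in Ly6d-low cells. Of 19 and 11 Zkscan and Zscan genes tested in the 2 comparisons, 0 were called in each. There were 0 and 6 at an unadjusted p under 0.05, against 2727 of 15771 and 4499 of 14625 genes at large. Of the Zfp genes with a letter after the digits, Zfp36l2, an RNA-decay factor with fingers of another type, was higher in overexpression cells (of 24 tested; log2 fold change 0.28, adjusted p = 0.0380 in edgeR's test), and 0 of 19 were called between the sorted fractions.

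The promoters of 3 of the genes called in the sorted fractions were held in the RefSeq promoter table (GRCm38.p6), which gives 250 bases before to 50 after a RefSeq start. These starts are not the ends of the gene positions given above. All 3 windows lie inside those positions, so part of each may be transcribed. They are shown because these genes were higher together in Ly6d-high cells, 5′ to 3′ on the strand of the gene, with the GC box GGGCGG in capitals on either strand (GGGCGG or CCGCCC).
Zfp467, chr6:48445041-48445340, minus strand: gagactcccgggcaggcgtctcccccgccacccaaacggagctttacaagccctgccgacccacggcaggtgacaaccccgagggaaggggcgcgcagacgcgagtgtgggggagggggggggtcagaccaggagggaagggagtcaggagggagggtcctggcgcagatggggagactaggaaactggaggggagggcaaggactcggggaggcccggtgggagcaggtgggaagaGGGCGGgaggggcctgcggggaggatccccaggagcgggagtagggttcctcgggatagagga
Zfp771, chr7:127244276-127244575, plus strand: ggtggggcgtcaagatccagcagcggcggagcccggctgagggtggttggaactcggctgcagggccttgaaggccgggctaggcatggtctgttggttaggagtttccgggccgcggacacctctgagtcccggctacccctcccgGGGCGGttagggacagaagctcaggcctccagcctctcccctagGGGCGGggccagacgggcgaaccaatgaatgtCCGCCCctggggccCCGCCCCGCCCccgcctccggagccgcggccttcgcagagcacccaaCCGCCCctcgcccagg
Zfp444, chr7:6172263-6172562, plus strand: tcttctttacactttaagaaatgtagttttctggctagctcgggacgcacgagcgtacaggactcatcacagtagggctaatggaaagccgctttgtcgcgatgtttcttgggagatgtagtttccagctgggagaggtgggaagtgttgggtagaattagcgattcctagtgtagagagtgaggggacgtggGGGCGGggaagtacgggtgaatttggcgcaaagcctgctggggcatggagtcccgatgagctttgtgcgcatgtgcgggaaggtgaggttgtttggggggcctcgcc
Counting matches that overlap each other, the GC box occurred 1, 6 and 1 times in these windows of Zfp467, Zfp771 and Zfp444. Of the 164 genes, 133 matched the promoter table by symbol, and 82 of them (61.7%) held GGGCGG on either strand in a window, against 10324 of 27025 genes in the table (38.2%). Among protein-coding genes with at least 100 counts in each count library, 5810 of the 8036 found in the table, out of 10132, held it (72.3%), a share above that of the zinc finger genes. The median number of CpG pairs in a window was 18 for the zinc finger genes, 21 for these expressed genes and 7 for the whole table. Such a match is a run of letters and does not show that a factor binds there.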

How the data were processed

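RNA sequencing of 16 samples is labelled, 8 of tumour tissue and 8 of sorted cells. No column was matched to a tissue group. That the overexpression columns hold sorted cells is an inference. Per the submitters' processing notes, reads went through fastp, HISAT2 and featureCounts, with DESeq2 and the build mm9 also named there. The positions deposited are those of GRCm38: 98.3% of the 54409 genes found in GENCODE M21 have the same chromosome, start and end. The deposited count table holds raw counts per gene, and the deposited TPM table holds TPM that the authors computed over the gene length, in bases, given beside each gene. The length column of the deposited tables is of another unit than the measurements. Another 2 count columns fit no label, and their values entered no step.

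The test of counts was that of edgeR 4.0.16 (filterByExpr, TMM, quasi-likelihood) and that of TPM was limma 3.58.1 (trend) on log2(TPM + 1), for genes that reached 1 TPM in at least 2 libraries. The pseudocount of 1 understates changes of low genes. A call required a Benjamini-Hochberg adjusted p under 0.05 over all genes tested. Both tests were also run on simulated counts with the same spread setting for every gene. No common shift or outlying library was set in them, so they do not bear on calls that moved with scaling or with a library left out. Library totals were 18290325 and 18001470 counts for overexpression and 18108850 and 15449241 for WT. Reads recovered from TPM and length were whole in 100% of 85643 values, within 0.1 reads, and gave totals of 20509539 and 18362419 for Ly6d-high and 15063975 and 19322028 for Ly6d-low. On them edgeR called 1815 genes.

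Alternatives were DESeq2 1.42.0, its size factors, no filter, a pseudocount of 0.1, TMM factors on TPM, the recovered reads, a replicate block and each library left out. The members and lists were chosen with earlier results of these data known. Genes named are those past the threshold whose groups do not overlap, up to the 10 largest in each direction, the 8 with the highest mean TPM, those nearest the count minimum, up to 4 called genes of each other list, Trim28, Setdb1 and Ly6d. Fingers, linkers and KRAB-like stretches were found in the translated coding sequence of the longest GENCODE M21 transcript, where the design had foreseen RefSeq proteins, with Biopython 1.88. No sequence of chromosome 18 is shown.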

Additional observations from a re-analysis of the deposited data

How the results depend on the processing

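Zfp467, Zfp704, Zfp574, Zfp771 and Zfp444 stayed higher in Ly6d-high cells, and Zfp395 in overexpression cells, under every alternative run. The number called did not stay. Between Ly6d-high and Ly6d-low cells, the zinc finger genes called higher, 5 as reported, were 0 with no filter, 1 with TMM factors on TPM, 3 with DESeq2 on recovered reads, 24 with a replicate block and 0 to 41 with a library left out. It was 0 without Ly6d-high replicate 2, 41 without Ly6d-high replicate 1 and 1 without either Ly6d-low replicate. Those called lower, 0 as reported, were 2 with edgeR and 1 with DESeq2 on recovered reads. All genes higher, 1264 as reported, were 485 with no filter, 702 with TMM factors, 3581 with the replicate block and 351 to 4049 with a library left out. All genes lower, 171 as reported, were 46 with no filter, 591 with edgeR and 632 with DESeq2 on recovered reads, 598 with the replicate block and 36 to 715 with a library left out. The zinc finger median, 0.26 as reported, was 0.031 with TMM factors, 0.020 with edgeR and 0.0088 with DESeq2 on recovered reads, and 0.14 to 0.37 with a library left out. The median of all genes, 0.25, was 0.0072 with TMM factors, 0.011 with edgeR and -0.0011 with DESeq2 on recovered reads, and 0.16 to 0.36 with a library left out. Under overexpression, zinc finger genes higher, 1 as reported, were 2 with no filter, 0 with a replicate block and 0 to 5 with a library left out, and those lower, 0 as reported, were 0 to 5. All genes higher, 366 as reported, were 608 with no filter and 327 to 694 with a library left out, and all genes lower, 290 as reported, were 579 with no filter and 238 to 890. The median of all genes, -0.00, was -0.011 to 0.0058 with a library left out. Some signs turned with a library left out. Under overexpression they did so for Zfp444 (-0.012 to 0.23), Zfp574 (-0.24 to 0.068), Zfp704 (-0.023 to 0.34), Zfp771 (-0.22 to 0.41) and Setdb1 (-0.050 to 0.0056), and between the sorted fractions for Setdb1 (-0.071 to 0.056). The fold change of Zfp771 was 0.41 without the first overexpression library and -0.22 without the second. The causes of these changes were not tested. Each fit with a library left out also had fewer samples, and the part of that was not tested either. Under overexpression the replicate block called 256 genes higher and 203 lower, and Zfp395 had an adjusted p of 0.0617 in edgeR's test. The replicate numbers, for overexpression those in the column names, share only a number: deviations of same-numbered libraries correlated at 0.068 across 14625 genes between the sorted fractions and at 0.00029 across 15771 genes between overexpression and WT. With 2 libraries a group, 130 of 154 zinc finger genes had a 95% interval within 2-fold of TPM + 1 between the sorted fractions, and 31 within 1.5-fold. These bounds hold for TPM + 1, and folds of TPM itself are wider, above all in low genes.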
